A study of Mus musculus with 65 samples.

Results

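The Ikzf1 and Ddc locus was examined as a window of 300 kb on chromosome 11 of the mouse genome (11.55 to 11.85 Mb, build mm9). Every peak of the 9 deposited peak sets that overlapped this window was taken, which gave 105 of 143220 peaks. The window was selected on the density of untreated LDB1 peaks in LDB1-AID cells, since it holds 1 of the 3 chains with the most neighbouring LDB1 peaks. Its number of LDB1 peaks is therefore a description and was not tested.

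The cells are G1E-ER4, a mouse erythroblast line that lacks its own Gata1 gene and carries GATA1 fused to the ligand-binding domain of the oestrogen receptor. 2 sublines were used, LDB1-AID and SMC3-AID, in which LDB1 or SMC3 is fused to a degron that makes cells destroy the fusion protein once auxin is added. Chromatin immunoprecipitation followed by sequencing (ChIP-seq) was used in 4 groups of cells, namely untreated LDB1-AID cells (LDB1, RAD21, CTCF and YY1), LDB1-AID cells after 4 h of auxin (LDB1), untreated SMC3-AID cells (LDB1 and RAD21) and SMC3-AID cells after 4 h of auxin (LDB1 and RAD21). The 5 LDB1-AID sets each combine 2 replicates and the 4 SMC3-AID sets each combine 3, so replicate errors cannot be given. Whether a subline is 1 clone, and whether the GATA1 fusion had been activated, is not given in the sources used here.

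LDB1 does not bind DNA by itself. It is brought to chromatin by LMO2 together with the DNA-binding proteins GATA1 and TAL1, and its self-association domain lets complexes at separate elements meet, as at the beta-globin locus. Cohesin, of which RAD21 and SMC3 are subunits, extrudes chromatin loops that CTCF can stop. YY1 is a zinc finger protein found at many promoters and enhancers.

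Ikzf1 encodes Ikaros, a zinc finger transcription factor of blood cell development that is best known from lymphocytes. Ddc encodes aromatic L-amino acid decarboxylase, the enzyme that makes dopamine and serotonin from their precursors. Fignl1, which encodes an AAA ATPase that acts in homologous recombination, lies between them. In the RefSeq order of protein-coding genes (GRCm38.p6), 4930512M02Rik precedes Ikzf1, and Ddc is followed by Grb10, an adaptor of growth factor receptor signalling. That annotation is of another build than the peaks, so no peak was assigned to a gene, promoter, exon or intron.

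Untreated LDB1-AID cells had 20 LDB1 peaks in the window, where the mean over the main chromosomes was 1.25 per 300 kb. RAD21 had 17 peaks (mean 3.87), CTCF 13 (mean 6.33) and YY1 13 (mean 1.5). Untreated SMC3-AID cells had 16 LDB1 peaks (mean 1) and 8 RAD21 peaks (mean 1.78). All 6 untreated sets thus had more peaks in the window than their mean. For LDB1 of LDB1-AID cells this is set by the selection of the window. LDB1 of SMC3-AID cells is not independent of it, since 13 of its 16 peaks overlapped one of that set. Nor are the other sets of LDB1-AID cells, where 9 of 17 RAD21, 6 of 13 YY1 and 3 of 13 CTCF peaks overlapped one. The means also cover each chromosome from its first to its last peak, with stretches poor in peaks included. Whether any set exceeds its mean apart from the selection was not tested. After 4 h of auxin, 3 LDB1 peaks were called in LDB1-AID cells (mean 0.122), and 15 LDB1 peaks (mean 0.845) and 0 RAD21 peaks in SMC3-AID cells.

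**Figure D1:**
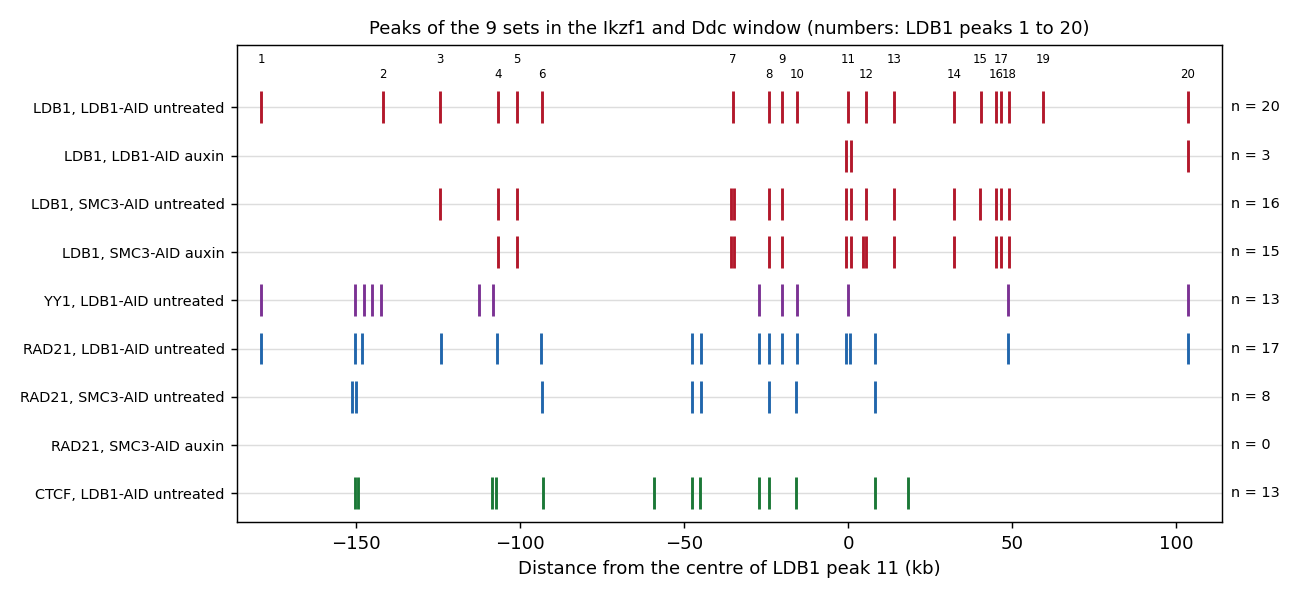
Centres of all peaks in the window for the 9 sets, plotted as distance in kb from the centre of LDB1 peak 11. Each vertical line is 1 peak, the numbers at the top are the 20 untreated LDB1 peaks of LDB1-AID cells, and n is the number of peaks in each set. Of the 20 LDB1 peaks of LDB1-AID cells 13 overlap an untreated SMC3-AID peak. After LDB1 depletion 3 LDB1 peaks are called, of which 1 overlaps an untreated LDB1-AID peak. The RAD21 set after SMC3 depletion is empty.

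The 20 LDB1 peaks are numbered by position. With neighbours no more than 25 kb apart joined into chains, they fell into 4 chains. Peak 1 (chr11:11557089-11557488) stood alone. Peaks 2 to 6 formed a chain of 5 over 48.9 kb (chr11:11594157-11643010), with a median spacing of 12.5 kb. Peaks 7 to 19 formed the chain of 13 over 95 kb (chr11:11700831-11795857), with spacings from 1.53 to 18.3 kb and a median of 6.86 kb. Peak 20 (chr11:11839515-11839914) belonged to a chain of 4 that ran past the end of the window.

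On the main chromosomes 3 chains held 13 LDB1 peaks, 1 held 12 and 1 held 11, so the chain of 13 was only just ahead of the next ones. At the window's edges, the last LDB1 peak inside (peak 20) lay 10.1 kb from the end and the next one outside (chr11:11852557-11852956) 2.56 kb beyond it. At the other edge, peak 1 lay 7.09 kb inside, and the nearest LDB1 peak outside (chr11:11470929-11471328) was 78.7 kb away.

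The other proteins at each LDB1 peak were read as an overlap of at least 1 bp in untreated LDB1-AID cells. RAD21 was present at 9 of the 20 LDB1 peaks, where 25.1% of all LDB1 peaks carried it. YY1 was present at 6 of 20 (20.4% of all LDB1 peaks) and CTCF at 3 of 20 (7.4% of all LDB1 peaks). The remaining 10 LDB1 peaks carried none of the 3 proteins, against 61.5% of all LDB1 peaks. With 20 peaks chosen with results known, these differences from the genome-wide shares were not tested.

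The combination of LDB1, RAD21 and YY1 without CTCF was found at peaks 1, 9, 18 and 20, which is 4 of 20 (7.37% of all LDB1 peaks). Peak 1 shared 374 bp with its RAD21 peak and 324 bp with its YY1 peak. Peak 9 (chr11:11715730-11716129) lay in the chain of 13, with its centre 88 bp from that of RAD21 and 111 bp from that of YY1. Peak 18 (chr11:11784955-11785354) had YY1 86 bp and RAD21 218 bp away from its centre. Peak 20 had RAD21 76 bp and YY1 104 bp away. These 4 sites were spread over the whole window, and the nearest CTCF peak was 28.8 kb from peak 1, 3.81 kb from peak 9, 30.6 kb from peak 18 and 33.9 kb from peak 20.

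Peak 10 (chr11:11720489-11720888) was the site in the window at which LDB1, RAD21, YY1 and CTCF met (1.63% of all LDB1 peaks). Its centre lay 50 bp from RAD21, 90 bp from YY1 and 290 bp from CTCF. The CTCF peak there (chr11:11720199-11720598) was thus set to one side of the other 3 proteins, and it shared 110 bp with LDB1.

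LDB1, RAD21 and CTCF without YY1 were found at peaks 6 and 8 (3.37% of all LDB1 peaks). At peak 8 (chr11:11711831-11712230) the CTCF centre was 86 bp and the RAD21 centre 122 bp away. At peak 6 (chr11:11642611-11643010) LDB1 and CTCF (chr11:11643008-11643407) shared 3 bp, and their centres lay 397 bp apart. RAD21 there was on the other side, 250 bp from LDB1 and 647 bp from CTCF. The count of 3 LDB1 peaks with CTCF therefore holds 1 close pair and 2 at the margin, and it became 1 under a stricter rule of 50% reciprocal overlap.

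Peaks 3 (chr11:11611693-11612092) and 4 (chr11:11629243-11629642) carried RAD21 alone by this rule, which was true of 12.8% of all LDB1 peaks. The RAD21 peak at LDB1 peak 4 also shared 17 bp with a CTCF peak whose centre was 538 bp from that of LDB1. Peak 11 (chr11:11736052-11736451) carried YY1 without RAD21 or CTCF (11% of all LDB1 peaks), with the YY1 centre 43 bp away.

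**Figure D2:**
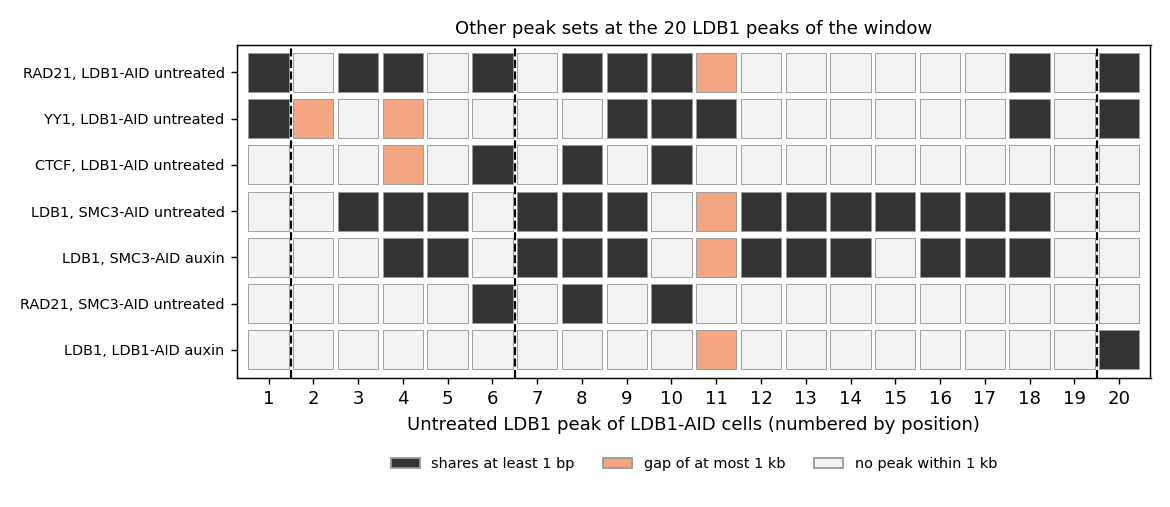
State of 7 other peak sets at each of the 20 untreated LDB1 peaks of LDB1-AID cells, in order of position, with dashed lines between chains. Dark cells share at least 1 bp with the LDB1 peak, orange cells have a peak within a gap of 1 kb, and pale cells have none. RAD21, YY1 or CTCF is found at peaks 1, 3, 4, 6, 8, 9, 10, 11, 18 and 20. Peaks 5, 7 and 12 to 17 carry LDB1 of both sublines alone.

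LDB1 peaks without any of the other 3 proteins were unevenly placed. They were peaks 2, 5, 7, 12, 13, 14, 15, 16, 17 and 19. In the chain of 13, peaks 12 to 17 followed each other without RAD21, YY1 or CTCF within 1 kb. Peaks 16 and 17 in this run were the closest pair of the window, with starts 1528 bp apart.

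The far side of the chain of 13 held the longest stretch without CTCF that began at a CTCF peak of the window. From the CTCF peak at chr11:11754349-11754748 to the next one at chr11:11873393-11873792 there was a stretch of 119 kb without CTCF. The median distance between neighbouring CTCF peaks was 14.1 kb, and 92.4% of all such stretches were shorter. Because the stretch was picked as the longest, its rank is partly set by that choice and was not tested. The window as a whole held 13 CTCF peaks, against a mean of 6.33 per 300 kb. This stretch held LDB1 peaks 14 to 20, and the distance from these to CTCF ranged from 13.8 kb at peak 14 to 41.1 kb at peak 19.

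On the other side, peaks 2 to 13 lay between 0.086 kb (peak 8) and 15.7 kb (peak 3) from CTCF. Peak 1, also on that side, lay 28.8 kb from CTCF, farther than peaks 14 to 17. Over all 20 LDB1 peaks the median distance to CTCF was 8.05 kb, against 6.32 kb over all LDB1 peaks. A CTCF peak lay within 10 kb of 11 of the 20, which is 55%, against 62.6% of all LDB1 peaks.

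**Figure D3:**
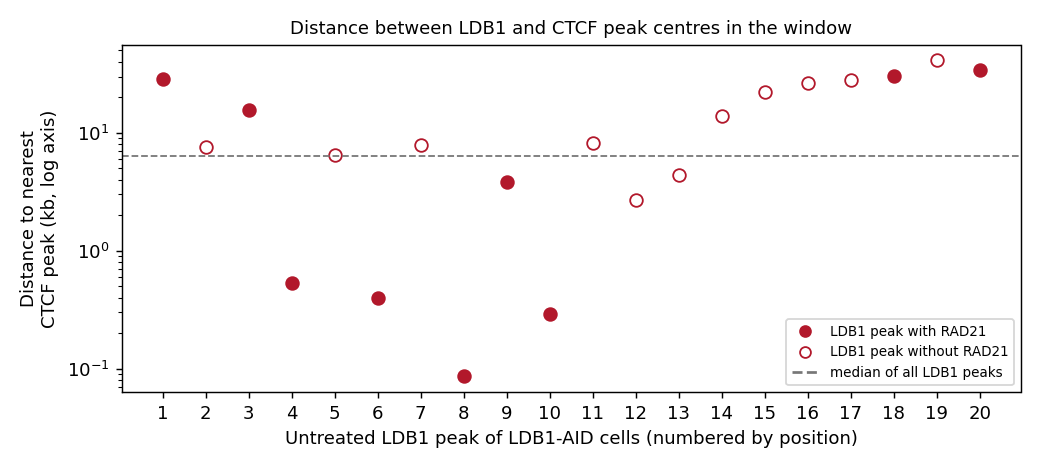
Distance in kb (log axis) from the centre of each of the 20 LDB1 peaks to the nearest CTCF centre in untreated LDB1-AID cells. Filled points carry RAD21, open points do not, and the dashed line is the median over all LDB1 peaks (6.32 kb). Peaks 4, 6, 8 and 10 lie under 1 kb from CTCF, and peaks 1, 3 and 14 to 20 lie beyond 10 kb.

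Seen from cohesin, 8 of the 17 RAD21 peaks of the window carried CTCF, which is 47.1%, where 80.9% of all RAD21 peaks did. LDB1 was present at 9 of the 17, against 8.15% of all RAD21 peaks. Of the 9 RAD21 peaks without CTCF, 6 carried LDB1 (32.8% of all RAD21 peaks without CTCF). The other 3 lay at chr11:11587778-11588177 and on both sides of LDB1 peak 11 (chr11:11735367-11735766 and chr11:11736611-11737010). Because the window was chosen for its LDB1 peaks, a large share of LDB1 among its RAD21 peaks is partly set by the choice. The same holds for the LDB1 shares of its CTCF and YY1 peaks given below. The choice also bears on the CTCF share of RAD21, since LDB1 was more frequent at RAD21 peaks without CTCF over all peaks.

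Of the 13 CTCF peaks, 8 carried RAD21, which is 61.5% (49.5% of all CTCF peaks), and 3 carried LDB1 (1.47% of all CTCF peaks). CTCF met RAD21 at 5 sites without LDB1. With YY1 as well, 2 of them lay at chr11:11585845-11586244 and chr11:11708729-11709128. The other 3 lay at chr11:11688293-11688692, chr11:11690939-11691338 and chr11:11744259-11744658. A further CTCF peak with RAD21 (chr11:11628705-11629104) did not itself overlap LDB1, but its RAD21 peak overlapped LDB1 peak 4. The pair at chr11:11688293-11688692 and chr11:11690939-11691338 stood between the chains of 5 and of 13 LDB1 peaks, and both were also RAD21 peaks of SMC3-AID cells.

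Of the 13 YY1 peaks, 6 carried LDB1 (17.1% of all YY1 peaks), 7 carried RAD21 (27.6%) and 3 carried CTCF (17.1%). YY1 and RAD21 met without LDB1 at 2 places, chr11:11585735-11586134 and chr11:11708855-11709254, and CTCF was present at both. Their YY1 and RAD21 centres lay 28 bp and 8 bp apart. The 5 YY1 peaks with none of the other proteins followed each other between chr11:11588322-11588721 and chr11:11627897-11628296; the first 3 lay before the chain of 5 and the other 2 within it. One of them (chr11:11593652-11594051) lay 505 bp from the centre of LDB1 peak 2. The first (chr11:11588322-11588721) lay 544 bp from a RAD21 centre. The last (chr11:11627897-11628296) lay 477 bp from a CTCF centre and also had LDB1 and RAD21 within a gap of 1 kb.

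The untreated sublines were compared to see how well the LDB1 sites of the locus repeat. Of the 20 numbered peaks, 13 shared at least 1 bp with LDB1 intervals of untreated SMC3-AID cells (67% of all LDB1 peaks). The centres of these 13 lay 0 to 297 bp apart, with a median of 20 bp. Peak 11 had SMC3-AID peaks on both sides. Peaks 1, 2, 6, 10, 19 and 20 had no LDB1 peak within 1 kb in untreated SMC3-AID cells.

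Of these 6 peaks 4 carried RAD21 in LDB1-AID cells (peaks 1, 6, 10 and 20), against 18.1% of all LDB1 peaks that had no SMC3-AID peak within 1 kb. YY1 was present at peaks 1, 10 and 20. Of the 10 LDB1 peaks with RAD21, YY1 or CTCF, 5 were found in untreated SMC3-AID cells (73.6% of all such LDB1 peaks). Of the 10 without, 8 were found (62.9% of all such LDB1 peaks). The order in the window was thus opposite to that over all LDB1 peaks, with 10 peaks in each class and no test of the difference. These counts are by overlap, so peak 11, which carried YY1, counts as not found. It had untreated SMC3-AID peaks within 1 kb on both sides, so the contrast rests on few peaks.

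In the other direction, 13 of the 16 untreated LDB1 peaks of SMC3-AID cells overlapped one of LDB1-AID cells (84.1% of all). The other 3 each lay within 1 kb of one, so 16 of 16 matched by that rule (85.8% of all). They were the pair around peak 11 and a peak at chr11:11700317-11700716. The latter was the first of 2 SMC3-AID peaks at LDB1 peak 7, and the second (chr11:11701128-11701527) shared 103 bp with it. With peaks within 1 kb of each other counted as 1 position, the 4 LDB1 sets held 20 positions, and each had an untreated LDB1-AID peak (87% of all positions).

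RAD21 was compared between the sublines in the same way. Of the 17 RAD21 sites, 7 recurred in untreated SMC3-AID cells (43.4% of all RAD21 peaks). With CTCF this was 6 of 8 (50.7% of all RAD21 peaks with CTCF), and without CTCF 1 of 9 (12.4% of all RAD21 peaks without CTCF). That 1 was at LDB1 peak 6, whose CTCF peak began beyond the end of the RAD21 interval. The RAD21 peaks at LDB1 peaks 1, 3, 4, 9, 18 and 20 had no counterpart in SMC3-AID cells, which left 3 of the 9 RAD21 peaks with LDB1 (18% of all RAD21 peaks with LDB1). Seen from SMC3-AID cells, 6 of the 8 RAD21 peaks carried a CTCF peak of LDB1-AID cells (92.3% of all). The SMC3-AID set was smaller, with 15245 RAD21 peaks in all against 33204, and read depth is unknown, so occupancy and calling cannot be told apart.

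Within SMC3-AID cells, RAD21 and LDB1 overlapped at 1 of the 16 LDB1 peaks (5.2% of all). This was the site of LDB1 peak 8, which was also among the 3 places with CTCF. At peaks 6 and 10 SMC3-AID cells had RAD21 but no LDB1 peak.

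The comparison after LDB1 depletion asks which LDB1 sites of the locus were still called once the protein was degraded. By overlap of at least 1 bp, 1 of the 20 LDB1 peaks was still called, which is 5% (7.77% of all LDB1 peaks). It was peak 20, which shared 330 bp with the residual peak (chr11:11839585-11839984). RAD21 and YY1 of untreated cells lay 6 bp and 34 bp from the centre of this residual peak. It is also a site without an LDB1 peak in SMC3-AID cells, untreated or treated, where the nearest untreated one lay 22662 bp away.

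Of the 13 peaks of the densest chain 0 overlapped a residual peak. If the peaks were independent, this would allow a share of up to 23.1% (3 divided by 13), but peaks of 1 combined list are not. Yet 2 of the 3 residual LDB1 peaks of the window lay inside that chain. They flanked peak 11, at chr11:11735303-11735702 and chr11:11736727-11737126, with centres 749 bp and 675 bp from its own. SMC3-AID cells had LDB1 peaks at the same 2 places before auxin (chr11:11735280-11735679 and chr11:11736764-11737163) and after it (chr11:11735320-11735719 and chr11:11736772-11737171). By overlap, 2 of the 3 residual peaks thus matched an untreated SMC3-AID peak (70.8% of all residual peaks), and 1 of 3 an untreated LDB1-AID peak (80.2%). Within 1 kb, 3 of 3 matched one of LDB1-AID cells (82.4%). Of the 16 untreated SMC3-AID peaks, 2 lay on a residual peak (8.57% of all). RAD21 of untreated LDB1-AID cells was also called at both places.

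The untreated LDB1-AID interval lay in the middle of these pairs. The centre of each pair was 30 bp (SMC3-AID untreated), 6 bp (SMC3-AID auxin), 37 bp (LDB1-AID auxin) and 63 bp (RAD21) from the centre of LDB1 peak 11. The pairs were spaced by 1484, 1452, 1424 and 1244 bp. YY1 was called as 1 peak in the middle, at chr11:11736095-11736494.

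All intervals are 400 bp wide, so the files do not tell whether the untreated interval is the centre of a broader called region or a summit between the others. With a gap of at most 1 kb allowed, peak 11 counted as still called, and the total was 2 of 20 (8.33% of all LDB1 peaks). The position of peak 11 thus had LDB1 peaks in all 4 LDB1 sets, the only one of the 20 positions that did.

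This arrangement was rare. Over the main chromosomes, 19 of 10729 untreated LDB1-AID peaks (0.177%) had no overlap with untreated SMC3-AID peaks but had them within 1 kb on both sides, and 2 were flanked in this way by residual peaks after LDB1 depletion. Both counts include peak 11 and were chosen after it had been seen. Flanking of this kind needs 2 peaks of the other set close together, which limits the counts. Neighbours that start within 1500 bp of each other, as these pairs do, numbered 348 in untreated SMC3-AID cells and 12 among residual peaks.

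**Figure D4:**
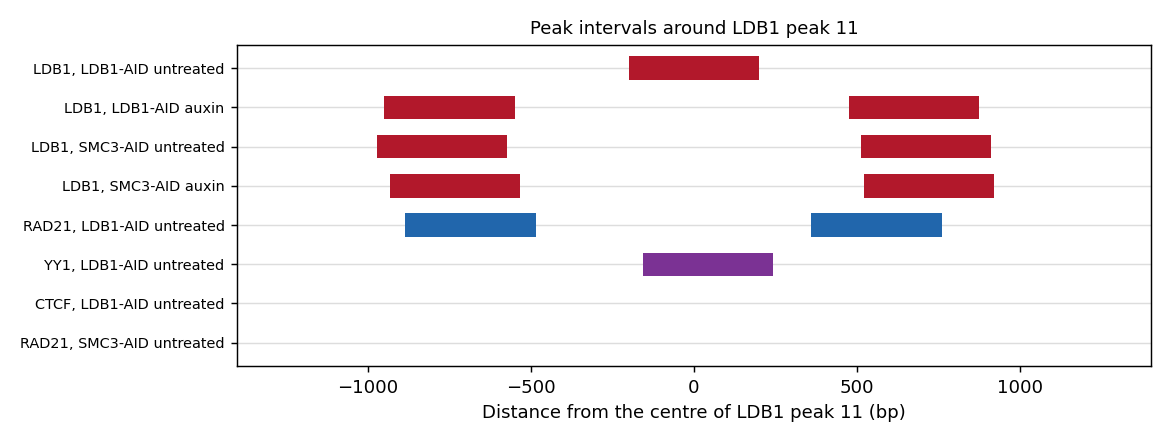
Intervals of 400 bp around LDB1 peak 11, plotted in bp from its centre for 8 sets. LDB1 of untreated LDB1-AID cells and YY1 have 1 interval in the middle, while LDB1 of the 3 other LDB1 sets and RAD21 of LDB1-AID cells have a pair of intervals beside it, and neither CTCF nor RAD21 of SMC3-AID cells has any.

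All 3 residual LDB1 peaks overlapped RAD21 of untreated cells (54.7% of all residual LDB1 peaks), and 1 overlapped YY1 (47.7%). The other 2 both belong to the position of peak 11, so the 3 are not separate sites. The YY1 peak between these 2 lay 792 and 632 bp from their centres. No CTCF peak lay within 1 kb of any of the 3 residual peaks.

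The comparison after SMC3 depletion asks whether LDB1 stayed at the locus without cohesin. In SMC3-AID cells all 8 RAD21 peaks of the window were absent after auxin. If the peaks were independent, a count of 0 of 8 would allow a share of up to 37.5% (3 divided by 8). Peaks of the same combined list are not independent, so this share is not a firm limit. Of all untreated RAD21 peaks of SMC3-AID cells, 0.092% were still called. The 8 lost peaks included those at LDB1 peaks 6, 8 and 10.

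LDB1 was still called at 14 of the 16 untreated SMC3-AID peaks, which is 87.5% (78.2% of all). The centres of the 14 pairs lay 6 to 40 bp apart, with a median of 9 bp. At peak 8, the site where SMC3-AID cells had RAD21 together with LDB1, the LDB1 peak after SMC3 depletion shared 390 bp with the untreated one.

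The 2 LDB1 peaks that were not called after SMC3 depletion were those at LDB1 peak 3 (chr11:11611735-11612134) and at LDB1 peak 15 (chr11:11776329-11776728). Peak 3 carried RAD21 in LDB1-AID cells, and peak 15 carried none of the other proteins. Neither had RAD21 in SMC3-AID cells, where the nearest RAD21 peaks were 25837 and 32130 bp away. Of the 15 LDB1 peaks called after SMC3 depletion, 14 overlapped an untreated one (92.8% of all), and 1 did not (chr11:11740651-11741050). It lay 920 bp from the untreated SMC3-AID peak at LDB1 peak 12.

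Counted by position, 11 of the 20 positions had LDB1 in untreated LDB1-AID cells and in SMC3-AID cells before and after auxin, but not after LDB1 depletion (43.7% of all 11885 positions on the main chromosomes). A further 5 (peaks 1, 2, 6, 10 and 19) were called in untreated LDB1-AID cells only (24.2% of all). Both untreated sublines alone had 2 (peaks 3 and 15), a pattern of 9.47% of all positions. LDB1-AID cells before and after auxin alone had 1 (peak 20), a pattern of 0.875%. Every LDB1 set had 1 (peak 11), a pattern of 6%. Each set is a list of calls, so a site near the calling threshold can be present in one list and absent from another.

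**Figure D5:**
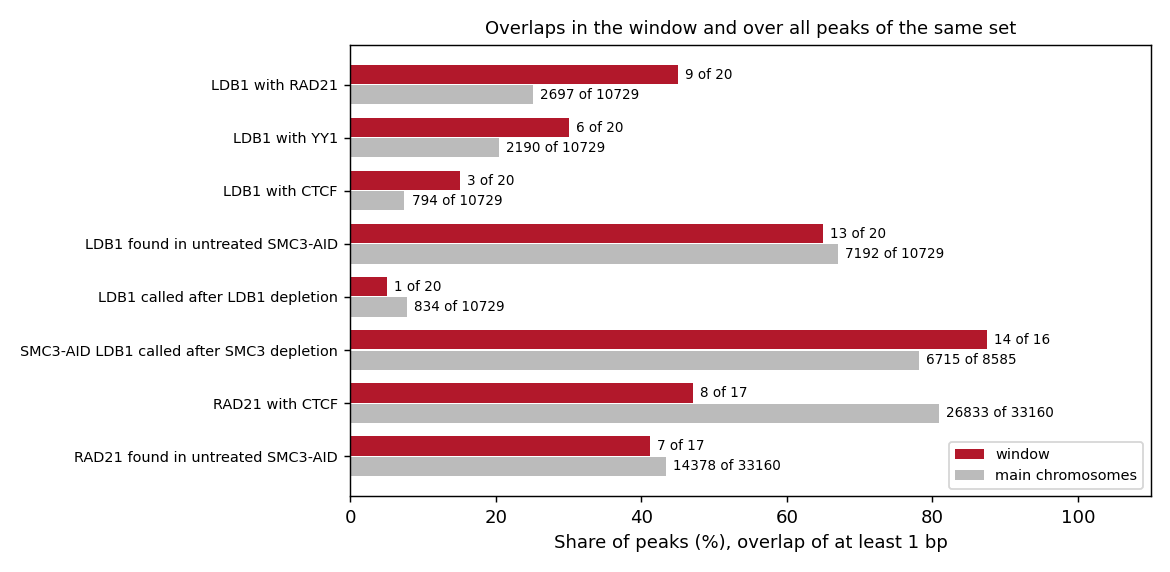
Share of peaks (%) with the second set at the same place, in the window (red) and over all peaks of the same set on the main chromosomes (grey), by overlap of at least 1 bp, with the counts beside the bars. RAD21 with CTCF shows 8 of 17 in the window against 80.9% over all peaks, and LDB1 with RAD21 shows 9 of 20 against 25.1%. The window was chosen for its LDB1 peaks, which bears on the share of RAD21 with CTCF. No replicate error exists for these shares.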

How the data were processed

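ChIP-seq was deposited by the authors as consensus peak lists, 1 per group, with a chromosome, start and end and no score, so read depth, peak height and replicate spread are unknown. The submitters' processing notes name Bowtie2, MACS2 2.2.9.1, deepTools 3.5.1 and the build mm9. The peak threshold and the consensus rule are not given in the sources used here. The 9 lists cover 22 of the 65 samples in the labels, grouped by title, and the other 43 were not analysed here.

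Starts were converted to count from 1. Shares over all peaks used chromosomes 1 to 19, X and Y. Overlap meant at least 1 bp in common. Alternatives were 50% of both peaks, midpoints within 500 bp, a gap of at most 1 kb, the densest chain alone, a window widened by 100 kb on each side, and the RAD21 set of SMC3-AID cells. The overlap code was tested on simulated data and gave the counts of bedtools 2.31.1 in 216 comparisons. Scripts ran in Python 3.11.15. The members and all comparisons were chosen with earlier results of these data known, and no test of significance was made. Coordinates are printed for peaks with other proteins, peaks without a counterpart in another set, chain ends and window edges. No genome of the build mm9 was used, so no sequence is shown.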

Additional observations from a re-analysis of the deposited data

How the results depend on the processing

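Of 47 alternative counts for the 9 overlap results, 38 stayed within 1.5 times the main count. Counts and not shares were compared, also where the number of peaks differed. RAD21 peaks with CTCF, for example, were 8 of 17 (47.1%) and 6 of 8 (75%) with the RAD21 set of SMC3-AID cells, which counts as within. The 38 include the alternatives for RAD21 after SMC3 depletion, which were all 0 as in the main count. LDB1 peaks still called after LDB1 depletion were 1 of 20, 2 with a gap of 1 kb, 0 of 13 in the densest chain alone and 3 of 26 in the widened window. LDB1 peaks with CTCF went from 3 to 1 when 50% of both peaks had to overlap. LDB1 peaks with RAD21 went from 9 to 3 with the RAD21 set of SMC3-AID cells. In the densest chain alone, which has fewer peaks by construction, 4 of 13 LDB1 peaks had RAD21, 4 of 8 RAD21 peaks had CTCF and 3 of 8 were found in SMC3-AID cells. In the widened window 11 of 25 RAD21 peaks were found there. Peak numbers in the densest chain were 13 for LDB1, 8 for RAD21, 5 for CTCF and 5 for YY1 in untreated LDB1-AID cells, and 3 for RAD21 in SMC3-AID cells. The widened window held 5 LDB1 peaks after LDB1 depletion. A stricter peak threshold could not be applied without scores. No paired analysis was possible because the deposited lists combine the replicates of each group, and for the same reason no replicate could be left out.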
